A study of Mus musculus with 16 samples.

Results

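The genes described here encode the matrix metalloproteinases (Mmp), the Adamts proteases, the related Adamtsl proteins and the tissue inhibitors of metalloproteinases (Timp). They were taken by symbol from the 23337 genes of the count tables: every Mmp, Adamts and Adamtsl followed by a number, and Timp1 to Timp4, without Mmp9, Mmp13 and Mmp20. This gave 48 genes, made up of 20 Mmp, 19 Adamts, 5 Adamtsl and 4 Timp genes. A gene was called not detected where it had fewer than 10 counts in every library. Of the 48 genes, 40 were detected, and the same 40 passed the filter for testing.

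Matrix metalloproteinases are zinc-dependent enzymes that cut collagens, basement membrane proteins and other proteins outside the cell. Most are made as inactive proenzymes, and the Timps block their active site. Adamts proteases trim procollagens and cut large proteoglycans such as versican and aggrecan, while Adamtsl proteins share their ancillary domains, lack the protease domain and bind fibrillin microfibrils. In a tooth germ, an epithelium grows and folds into a mesenchyme across a basement membrane, and the surrounding matrix and jaw bone are remodelled as it does so.

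The tissue was the first molar germ of wild-type CD1 mouse embryos, an outbred strain, with every embryo labelled male. There were 8 libraries labelled upper and 8 labelled lower, 1 of each at ED14.5, ED15.0, ED15.5, ED16.0, ED16.5, ED17.0, ED17.5 and ED18.0 (ED, embryonic day). Per the labels, a library held the left and the right germ of 1 embryo. That embryo is labelled as the source of both the labelled upper and the labelled lower library of its stage. Stage and labelled embryo are thus a single factor. Embryos are numbered 1 to 8 in stage order. Nothing in the labels describes a transgene or a treatment.

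The labelled upper libraries held 33146758 to 38584429 gene counts and the labelled lower libraries 35918529 to 44565205. The labels go against markers of the jaw and of sex. Pou3f3, a transcription factor gene of the upper jaw, measured 9.97, 131.5, 8.24, 119.2, 6.45, 111.6, 10.1 and 109.5 CPM (counts scaled to a common total of gene counts per library) from ED14.5 to ED18.0 in labelled upper, against 4.89, 86.2, 5.14, 70.7, 5.46, 64.6, 4.45 and 60.1 CPM in labelled lower libraries. It thus alternated from embryo to embryo inside both labels. Xist, which is transcribed from the inactive X chromosome of female cells, was read at 1499 to 1831 CPM in labelled upper and at 431.8 to 1928 CPM in labelled lower libraries, with the lowest values in labelled lower embryos 1 and 2. In embryos 1 and 2 Xist measured 1664 and 1739 CPM in labelled upper, against 431.8 and 542.3 CPM in labelled lower libraries of the same numbers. The teeth are therefore called labelled upper and labelled lower throughout, and an embryo is the embryo number that the labels give. The flow cell followed the tooth label, and within each label the lane followed the first and last 4 embryos, so flow cell and label cannot be told apart. In bulk germs, fewer cells of a type and less RNA per cell cannot be told apart either.

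All 8 undetected genes were Mmps, and 6 of them lie in 1 stretch of chromosome 9. These 6 are Mmp1a and Mmp1b, relatives of interstitial collagenase, the stromelysin Mmp10, the matrilysin Mmp7, the macrophage elastase Mmp12, and Mmp27. They lie with Mmp3 and Mmp8 in a run of 8 members between positions 7344381 and 7699585 (mm10, about 355.2 kb), a region singled out after positions and values were seen. The only other gene of the count tables inside it was Mmp20, which the rule leaves out. The 6 genes had 53 counts in all over the 16 libraries. Mmp1b and Mmp27 had 0 counts, which allows up to 0.005 CPM (3 counts over all libraries, counting error only), and Mmp12 was the highest of them with at most 8 counts in a library. The other undetected genes were Mmp21 on 10 counts in all and the membrane-type Mmp24 on 64. Mmp12 and Mmp24, each with at most 8 counts in a library, were just outside the limit, and Adamts13, with at most 27, was just inside it. The detected Mmps of the run were low as well. Mmp3 (stromelysin 1) reached 43 counts and Mmp8 (neutrophil collagenase) 37 counts in their highest libraries. Mmp13, the collagenase just outside the run at 7272514 to 7283331, measured 0.644 to 18.1 CPM in labelled upper and 38.1 to 175.2 CPM in labelled lower libraries, so genes a short distance apart were read at very different levels.

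Several start regions of this run carry letters in common, shown here as a description. A link of these letters with detection was not tested. RefSeq lists 300-base windows (GRCm38.p6, 250 bases before a start and 50 after it) for 34 of the 48 genes, 37 windows in all. A pair of motifs was searched on both strands: TATAAA, the core of a TATA box, and TGANTCA, the letters bound by AP-1 (Fos and Jun), which do not overlap each other. Both stood in 6 of the 10 windows of the run and in 0 of the 27 windows of the other members, against 1.54% of all 32851 windows. Counted with or without the other motif, TATAAA stood in 13.6% and TGANTCA in 7.81% of all windows. The windows with both belong to the genes below, each printed 5′ to 3′ on the gene's strand with the motifs in capitals.
Mmp12, chr9:7347324-7347389 (plus strand, the second of its listed starts): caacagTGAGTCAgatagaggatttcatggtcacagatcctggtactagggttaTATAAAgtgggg
Mmp1b, chr9:7388064-7388125 (minus strand): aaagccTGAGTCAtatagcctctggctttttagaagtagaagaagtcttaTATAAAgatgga
Mmp3, chr9:7445770-7445826 (plus strand): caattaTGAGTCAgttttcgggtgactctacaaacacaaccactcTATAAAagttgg
Mmp1a, chr9:7464062-7464124 (plus strand): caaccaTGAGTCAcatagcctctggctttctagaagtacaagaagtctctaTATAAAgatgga
Mmp10, chr9:7502273-7502324 (plus strand): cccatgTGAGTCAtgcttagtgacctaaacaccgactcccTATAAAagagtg
Mmp7, chr9:7692021-7692075 (plus strand): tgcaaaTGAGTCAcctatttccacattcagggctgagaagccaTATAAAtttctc

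In each of the 6 stretches the letters TGAGTCA came first and TATAAA followed 27 to 41 bases later. TATAAA began 26 to 29 bases before the listed start in Mmp1a, Mmp10 and Mmp7. In Mmp1b it began 49 bases before the start, in Mmp3 7 bases before and in Mmp12 4 bases after. Of these genes, 5 were not detected and Mmp3 was detected at low counts. The undetected Mmp21, Mmp24 and Mmp27 had no window with both motifs. The Mmp1a and Mmp1b stretches share most of their letters, so the windows are not independent of one another. A match is a description of letters and says nothing of binding. Windows of the run were also poor in the dinucleotide CG, with a median of 1.5, against 22 in the windows of the other members and 7 over all windows. Mmp14 and Timp2, among the 3 members with the highest levels, are printed for contrast with CG in capitals. Their windows held 10 and 25 CG. Outside the run, the undetected Mmp24 had 44 CG and the undetected Mmp21 had 2, while the detected Timp4 and Adamts13 had 2 each. A link of CG with detection was not tested.
Mmp14, chr14:54431348-54431647 (plus strand): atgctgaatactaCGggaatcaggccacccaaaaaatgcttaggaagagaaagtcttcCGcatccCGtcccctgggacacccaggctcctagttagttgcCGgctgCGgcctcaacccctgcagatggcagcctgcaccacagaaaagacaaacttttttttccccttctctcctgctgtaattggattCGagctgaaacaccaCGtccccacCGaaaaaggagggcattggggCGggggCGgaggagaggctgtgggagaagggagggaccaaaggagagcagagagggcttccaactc
Timp2, chr11:118355362-118355661 (minus strand): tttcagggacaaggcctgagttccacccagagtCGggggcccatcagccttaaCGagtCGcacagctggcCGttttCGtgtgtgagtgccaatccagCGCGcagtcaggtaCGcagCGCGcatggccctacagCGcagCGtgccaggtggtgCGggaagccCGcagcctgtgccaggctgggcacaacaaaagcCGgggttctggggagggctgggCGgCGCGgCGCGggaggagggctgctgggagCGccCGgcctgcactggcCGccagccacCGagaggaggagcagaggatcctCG

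Per kilobase of annotated exon, 3 genes stood far above the other members in every library. They are partners in a known activation step: Mmp14, a membrane-type enzyme, activates pro-Mmp2 at the cell surface with Timp2 as the bridge. The gelatinase Mmp2 averaged 116.1 CPM per kb over the 16 libraries (87.1 to 150.3), Timp2 80.8 (67.7 to 102.9) and Mmp14 68.4 (61.3 to 74.3). The ranges of Mmp2 and Timp2 overlapped, as did those of Timp2 and Mmp14. The next level per kb was that of Mmp11 (stromelysin 3) at 23.2 (19.0 to 27.7), so no library of the first 3 genes came near it. Adamts10, at 18.9 (14.1 to 24.7), and Timp3, at 17.1 (11.7 to 20.7), overlapped Mmp11 and each other.

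Among the members of each family 1 or 2 genes held most of the summed level per kb, except among the Adamts. Mmp2 made up 51.1% of the Mmp sum, and Mmp2 with Mmp14 made up 81.2%. By the rule this sum leaves out Mmp9, Mmp13 and Mmp20, so it is not the level of the whole family. Mmp9 measured 91.2 to 205.1 CPM in labelled upper and 169 to 473 CPM in labelled lower libraries. Timp2 was 75.3% of the Timp sum, and Timp2 with Timp3 was 91.2%. The Adamts family was more even, with Adamts10, which acts on fibrillin microfibrils, at 21.4% of the sum, and Adamts10 with its relative Adamts17 at 32.6%. Adamtsl1 (punctin) was 38.3% of the Adamtsl sum. The summed Mmp level ran from 199.1 to 270.9 CPM per kb in labelled upper and from 201.9 to 258.9 in labelled lower libraries, and the summed Timp level ran from 89.9 to 131.2 in labelled upper and from 94.9 to 123.7 in labelled lower libraries. Both sums overlapped between the labels.

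**Figure D1:**
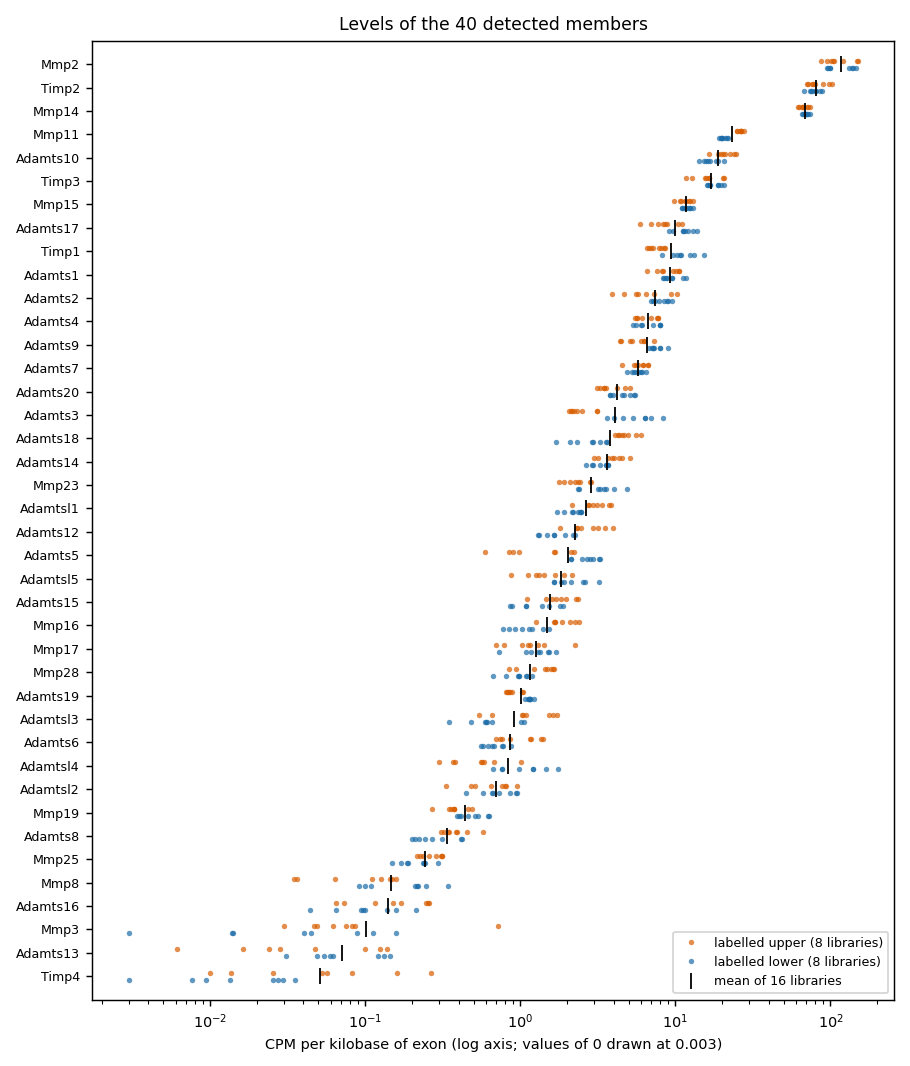
Level of each detected member in CPM per kilobase of exon (log axis), 1 point per library, labelled upper above labelled lower on each row, with a bar at the mean of the 16 libraries and libraries at 0 drawn at the left edge. Mmp2, Timp2 and Mmp14 stand to the right of all other members, at means of 116.1, 80.8 and 68.4.

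The highly read genes of each class differed in how steady they were. Mmp14 measured 365.6 to 443.0 CPM in labelled upper and 391.7 to 441.9 CPM in labelled lower libraries, and the membrane-type Mmp15 measured 52.5 to 70.6 CPM in labelled upper and 59.2 to 70.6 CPM in labelled lower libraries. Relative to their means, and with the 16 libraries pooled, these 2 genes had the narrowest ranges of the 40 detected members. Among the proteoglycanases the highest levels per kb were those of Adamts1 (9.24), Adamts4 (6.69) and Adamts9 (6.59). Among the procollagen N-propeptidases, which trim fibrillar procollagens, Adamts2 was highest at 7.39, followed by Adamts3 at 4.07 and Adamts14 at 3.62. Adamts7 and Adamts12, which cut cartilage oligomeric matrix protein, measured 5.78 and 2.27 CPM per kb. The lowest detected member was Timp4 at 0.051 CPM per kb.

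The first comparison asks which genes differ between the labelled teeth. It was fitted over all 16 libraries with a smooth stage curve, using edgeR (quasi-likelihood F test, Benjamini-Hochberg adjusted over all 16287 genes tested), and a gene was called at an adjusted p under 0.05. Of the 40 members tested, 12 were higher in labelled upper (18.1% of all genes tested were) and 11 were higher in labelled lower (also 18.1% of all genes). In either direction this was 23 members, against 36.2% of all genes tested. The median log2 difference of the members, labelled upper minus labelled lower, was -0.04, against 0.01 over all genes, and their median size of difference was 0.43, against 0.14 over all genes. All 4 families were split: 3 Mmps, 6 Adamts, 2 Adamtsl and 1 Timp were higher in labelled upper, and 3 Mmps, 5 Adamts, 2 Adamtsl and 1 Timp were higher in labelled lower. In CPM, the 2 labels did not overlap at all for 4 members (Adamts3, Adamts18, Adamts19 and Mmp11), which is 10% of the 40, against 6.4% of all genes tested.

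**Figure D2:**
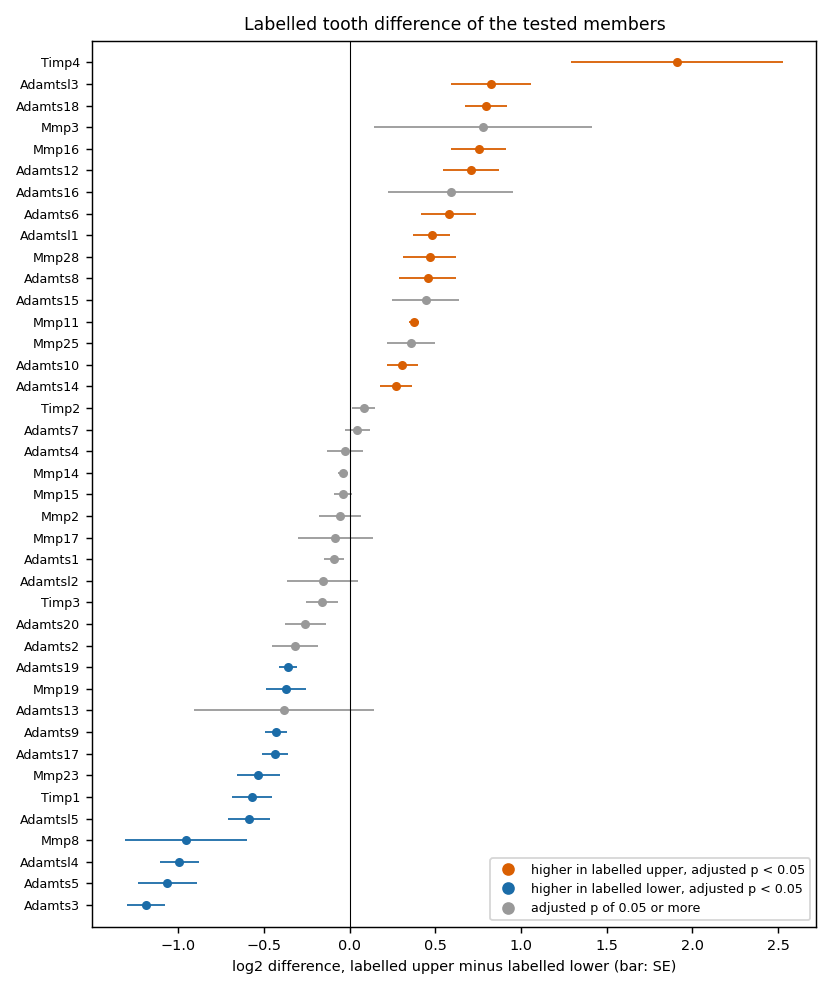
Log2 difference (labelled upper minus labelled lower) of the tested members with its standard error, ordered by size. Calls at an adjusted p under 0.05 lie on both sides, 12 higher in labelled upper and 11 higher in labelled lower, and Timp4 has the longest error bar among the called genes.

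The procollagen N-propeptidases went opposite ways. Adamts3 (chromosome 5, 89677087 to 89883334), which trims procollagens and also processes the lymphatic growth factor Vegfc, measured 11.6, 11.8, 11.1, 13.6, 12.7, 12.1, 16.9 and 16.99 CPM by stage in labelled upper, against 21.8, 19.7, 34.4, 25.0, 34.5, 28.8, 44.9 and 37.8 CPM in labelled lower libraries. Every labelled lower library was above every labelled upper one. The log2 difference was -1.19 ± 0.11 (SE), 2.28 times higher in labelled lower, with an adjusted p of 3.03e-06. Adamts14 was called the other way, with 15.6 to 26.5 CPM in labelled upper and 13.8 to 19.2 CPM in labelled lower libraries (log2 difference 0.27 ± 0.09, adjusted p = 0.0348), and it lost the call without embryo 2, 3, 4 or 8 (adjusted p 0.0673 to 0.114). Adamts2 was not called (log2 difference -0.32 ± 0.13, adjusted p = 0.0795). It was called as higher in labelled lower with the embryo as a block, by DESeq2's Wald test and without embryo 6 or 8.

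Among the proteoglycanases, Adamts5 and Adamts9 were higher in labelled lower and Adamts8 was higher in labelled upper, while Adamts1, Adamts4, Adamts15 and Adamts20 were not called. Adamts5 (chromosome 16, 85856173 to 85901828), the main aggrecanase of mouse cartilage, measured 9.11, 6.41, 10.5, 9.74, 24.1, 17.9, 18.003 and 22.8 CPM in labelled upper, against 29.1, 22.8, 26.9, 23.1, 35.4, 31.8, 34.9 and 30.5 CPM in labelled lower libraries. It was higher in the labelled lower library of all 8 embryos (log2 difference -1.06 ± 0.17, adjusted p = 0.0003025), although the labelled upper library of embryo 5 lay inside the labelled lower range. Adamts9, a versican-cutting protease, measured 66.2 to 110.3 CPM in labelled upper and 101.2 to 134.3 CPM in labelled lower libraries (log2 difference -0.43 ± 0.06, adjusted p = 0.000178), again in 8 of 8 embryos. Adamts8 measured 1.43 to 2.65 CPM in labelled upper and 0.923 to 1.96 CPM in labelled lower libraries, with a log2 difference of 0.45 ± 0.16 and an adjusted p of 0.0425. Its call was lost without embryo 1, 3, 4, 5, 7 or 8 (adjusted p 0.0506 to 0.143), with no filter on low counts (0.0529) and with the embryo as a block (0.0542). With that block Adamts15 was called as higher in labelled upper (log2 difference 0.47, adjusted p = 0.00189), against 0.45 ± 0.20 and an adjusted p of 0.0893 with the stage curve. It was also called without embryo 6 (adjusted p = 0.0411).

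The remaining Adamts proteases held 6 of the calls. Adamts18 (chromosome 8, 113697126 to 113848738), a secreted protease, measured 43.1, 43.8, 60.7, 50.0, 56.6, 47.6, 46.0 and 41.8 CPM in labelled upper, against 36.4, 33.1, 29.6, 37.0, 21.2, 29.8, 17.3 and 23.8 CPM in labelled lower libraries. The labels did not overlap (log2 difference 0.79 ± 0.12, adjusted p = 0.000207). Adamts19, known in humans from heart valve disease, was the reverse, with 11.4 to 14.6 CPM in labelled upper and 15.1 to 17.2 CPM in labelled lower libraries, also without overlap (log2 difference -0.36 ± 0.05, adjusted p = 0.000135). Adamts10 and Adamts17, both tied to fibrillin microfibrils, went opposite ways. Adamts10 measured 135.9 to 203.9 CPM in labelled upper and 116.4 to 169.3 CPM in labelled lower libraries (log2 difference 0.31 ± 0.09, adjusted p = 0.0163), and was not called without embryo 4 (adjusted p = 0.055). Adamts17 measured 45.7 to 86.1 CPM in labelled upper and 71.1 to 107.0 CPM in labelled lower libraries (log2 difference -0.43 ± 0.08, adjusted p = 0.000573). Each pointed the same way in all 8 embryos. Adamts6, close in sequence to Adamts10, and Adamts12 were also higher in labelled upper in 8 of 8 embryos, with log2 differences of 0.58 ± 0.16 (adjusted p = 0.0114) and 0.71 ± 0.16 (adjusted p = 0.00394).

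Of the 12 tested Mmps, 6 were called, and the abundant Mmp2 and Mmp14 were not among them. Mmp11 (chromosome 10, 75923222 to 75936496), which furin activates inside the cell, had the smallest p of all members in this comparison. It measured 73.8, 72.1, 73.2, 76.8, 73.3, 73.9, 69.2 and 69.1 CPM in labelled upper, against 60.4, 55.5, 58.0, 60.2, 55.1, 54.4, 52.8 and 54.3 CPM in labelled lower libraries. The difference was small and steady at every stage (log2 difference 0.37 ± 0.03, 1.30-fold, adjusted p = 5.57e-07). Mmp16, a membrane-type enzyme, measured 10.96 to 20.7 CPM in labelled upper and 6.76 to 13.4 CPM in labelled lower libraries (log2 difference 0.75 ± 0.16, adjusted p = 0.00214). Mmp28 (epilysin) was also higher in labelled upper (log2 difference 0.47 ± 0.15, adjusted p = 0.0293), a call lost without embryo 1, 2, 3, 4 or 8 (adjusted p 0.0528 to 0.0884).

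Mmp8, Mmp19 and Mmp23 were higher in labelled lower. Mmp23, an enzyme without the usual cysteine switch, measured 4.17 to 6.67 CPM in labelled upper and 5.49 to 11.5 CPM in labelled lower libraries (log2 difference -0.53 ± 0.13, adjusted p = 0.00473). Mmp19 measured 0.954 to 1.72 CPM in labelled upper and 1.38 to 2.22 CPM in labelled lower libraries (log2 difference -0.37 ± 0.12, adjusted p = 0.0219), and lost its call without embryo 3, 4 or 8 (adjusted p 0.0553 to 0.074). Mmp8 rested on 3 to 13 counts per labelled upper library and 8 to 37 per labelled lower library. Its log2 difference of -0.95 ± 0.36 had an adjusted p of 0.0497, which rose above the threshold with the embryo as a block (0.0791), with no filter on low counts (0.0565) and without embryo 1, 2, 3, 4, 6 or 7 (0.0669 to 0.13). Mmp2 measured 293.6 to 506.8 CPM in labelled upper and 319.4 to 494.6 CPM in labelled lower libraries, with a log2 difference of -0.06 ± 0.12 (adjusted p = 0.756), and Mmp14 had one of -0.04 ± 0.03 (adjusted p = 0.366).

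The Adamtsl proteins split evenly. Adamtsl4 (chromosome 3, 95676201 to 95687917), a fibrillin-binding protein of the lens zonule in humans, measured 1.59, 1.26, 1.56, 2.33, 2.37, 2.83, 2.45 and 4.25 CPM in labelled upper, against 2.79, 3.19, 3.20, 4.11, 5.09, 6.14, 5.07 and 7.40 CPM in labelled lower libraries. It was higher in the labelled lower library of all 8 embryos (log2 difference -0.99 ± 0.11, adjusted p = 1.56e-05), although the labels overlapped across stages. Adamtsl5 was higher in labelled lower in 7 of 8 embryos (log2 difference -0.58 ± 0.12, adjusted p = 0.00208), with 4.14 to 10.2 CPM in labelled upper and 7.74 to 15.1 CPM in labelled lower libraries. Adamtsl1 measured 27.7 to 48.8 CPM in labelled upper and 22.1 to 31.3 CPM in labelled lower libraries (log2 difference 0.48 ± 0.11, adjusted p = 0.00315). Adamtsl3 (punctin 2) was higher in labelled upper in 6 of 8 embryos (log2 difference 0.82 ± 0.23, adjusted p = 0.0129), with 4.20 to 13.3 CPM in labelled upper and 2.70 to 8.25 CPM in labelled lower libraries.

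The Timps differed among themselves. Timp2 and Timp3, the abundant pair, were not called: Timp2 had a log2 difference of 0.08 ± 0.07 (adjusted p = 0.376) and Timp3, which binds to the matrix and also inhibits Adamts proteases, had one of -0.16 ± 0.09 (adjusted p = 0.205). Timp1 (chromosome X, 20870166 to 20874735), a secreted inhibitor, measured 7.64, 6.97, 5.83, 7.46, 5.99, 6.17, 6.36 and 7.18 CPM in labelled upper, against 7.25, 8.57, 9.61, 10.96, 9.47, 13.7, 9.14 and 11.8 CPM in labelled lower libraries. The labelled lower value was above its labelled upper partner in all embryos but the first (log2 difference -0.57 ± 0.11, 1.48 times higher in labelled lower, adjusted p = 0.00158). Timp4 was read at 32, 56, 12, 18, 3, 12, 2 and 5 counts in labelled upper, against 6, 2, 6, 0, 2, 8, 7 and 3 counts in labelled lower libraries. Its log2 difference of 1.91 ± 0.62 (adjusted p = 0.0263) went with the high counts of the first stages of labelled upper and was not called without embryo 1, 2 or 4 (adjusted p 0.0716 to 0.0933). Without embryos 1 and 2 together it was 1.11 (adjusted p = 0.246).

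Markers of other cell types moved with the tooth label, and their part in these differences was not tested. All 6 osteoclast markers were higher in labelled lower, and their summed level was 69.6 to 159.8 CPM in labelled upper and 84.0 to 537.0 CPM in labelled lower libraries. Of the 7 macrophage markers tested, 5 were higher in labelled lower (sum 49.1 to 81.1 CPM in labelled upper, 59.7 to 123.2 CPM in labelled lower). Of the 6 markers of cornifying oral epithelium, 4 were higher in labelled lower (sum 94.98 to 508.2 CPM in labelled upper, 189.6 to 1545 CPM in labelled lower). Of the 6 markers of dental mesenchyme, 4 were higher in labelled upper (sum 1710 to 2396 CPM in labelled upper, 1192 to 1875 CPM in labelled lower). The dental epithelium markers were called 1 higher in labelled upper and 2 higher in labelled lower (sum 2403 to 4158 CPM in labelled upper, 3040 to 4237 CPM in labelled lower). The remaining lists, like dental epithelium, had at most 2 of 6 genes called in a given direction, small counts beside 18.1% of all genes. Endothelium had 2 of 6 higher in labelled lower (sum 309.3 to 377.8 CPM in labelled upper, 342.9 to 398.5 CPM in labelled lower), and skeletal muscle had 1 of 6 higher in labelled lower (sum 2.12 to 48.2 CPM in labelled upper, 3.91 to 19.3 CPM in labelled lower). Cartilage had 1 of 6 higher in labelled upper and 2 higher in labelled lower (sum 84.3 to 138.9 CPM in labelled upper, 111.7 to 171.2 CPM in labelled lower). Bone had 2 of 6 higher in labelled upper and 1 higher in labelled lower (sum 282.3 to 579.9 CPM in labelled upper, 308.7 to 461.4 CPM in labelled lower). No listed marker found in the tables was at 0 in all libraries.

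Genes known to act with these enzymes were taken from 4 lists. Their counts stand beside 18.1% of all genes tested higher in each label, and 2 of 10 is near that share. Of 10 inhibitors and activators, Reck, a membrane-anchored Mmp inhibitor, and Serpine2, which inhibits plasminogen activators, were higher in labelled lower (log2 differences -0.22 ± 0.05 and -0.31 ± 0.04) and none was higher in labelled upper. Furin, which activates membrane-type Mmps, was not called (0.13 ± 0.06, adjusted p = 0.103). Of 8 substrates, 3 were higher in labelled lower and none in labelled upper. Vcan (versican) measured 998.9 to 1526 CPM in labelled upper and 1723 to 2307 CPM in labelled lower libraries, without overlap (log2 difference -0.57 ± 0.05), Acan (aggrecan) had a log2 difference of -2.46 ± 0.25, and Fbn2 (fibrillin 2) one of -0.61 ± 0.14. Of 5 procollagen C-propeptidases and their enhancers, Bmp1 was higher in labelled upper, and Tll1 and Pcolce2 were higher in labelled lower. Of 6 Adam sheddases, Adam19 was higher in labelled upper, and Adam9, Adam10 and Adam12 were higher in labelled lower.

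**Figure D3:**
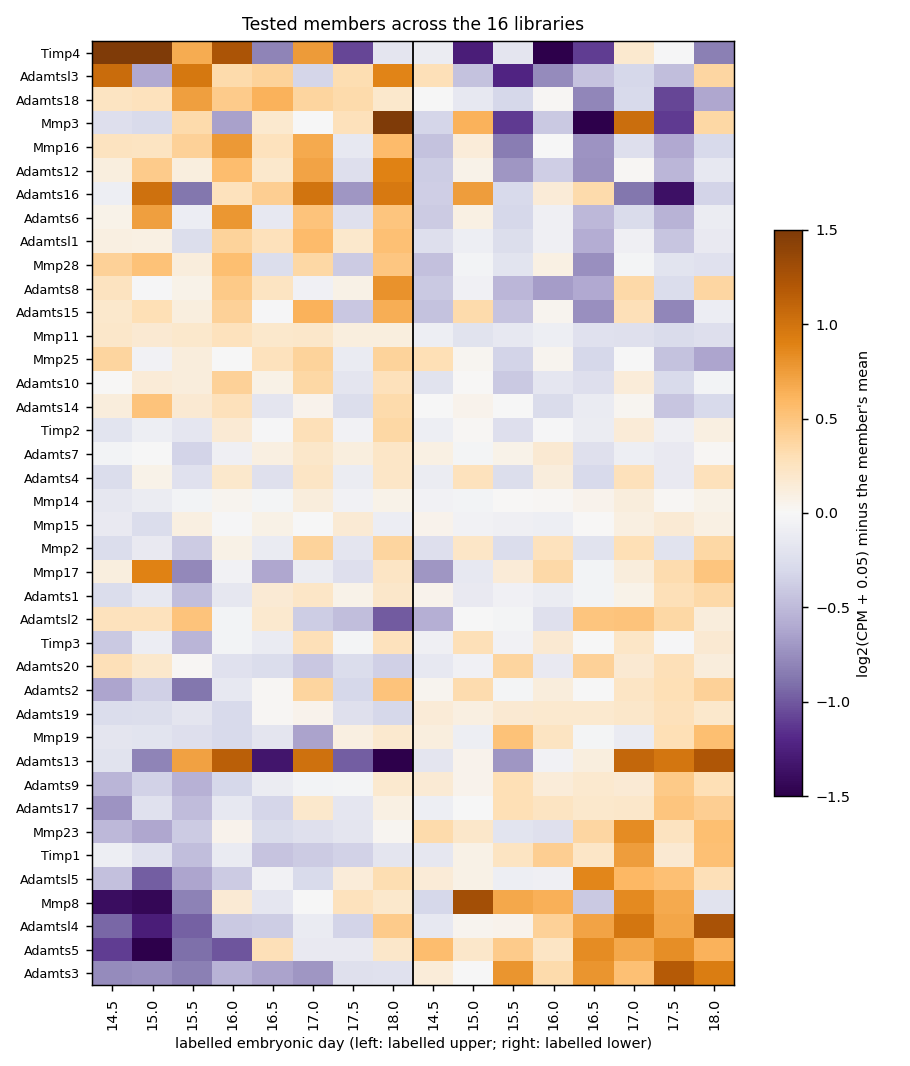
Log2(CPM + 0.05) of each tested member minus its mean over the 16 libraries, labelled upper stages on the left and labelled lower stages on the right, members ordered by the tooth difference and colours capped at the ends of the scale. Adamts3, Adamts5 and Adamtsl4 at the bottom are mostly below their mean in labelled upper and mostly above it in labelled lower, and Timp4 at the top is high in the early labelled upper libraries.

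The second comparison asks how the genes changed with stage, as a linear slope per embryonic day in the 8 libraries of a label (edgeR quasi-likelihood, Benjamini-Hochberg adjusted). Pou3f3 alternated between neighbouring stages, and was low at the first and high at the last stage of both labels. Neither this fit nor the third comparison held a term for that alternation, and its part in the slopes was not tested. In labelled upper, 4 members rose (3.72% of all genes did) and 3 fell (2.41% of all genes did), which is 7 of 40 against 6.13% of all genes. In labelled lower, 2 rose (2.63% of all genes) and 0 fell (1.49% of all genes), which is 2 of 40 against 4.11% of all genes. Over both directions, 12 members had an unadjusted p under 0.05 in labelled lower, and DESeq2's Wald test called 1 falling member there, Adamts18 (4.75% of all genes fell by that test). The median slope of the 40 members was 0.08 in labelled upper and 0.06 in labelled lower, against less than 0.01 over all genes in each. The first and last 4 libraries of a label were run in different lanes, as the deposited files are named. With lane as a term no member was called in either label (an unadjusted p under 0.05 was reached by 8 members in labelled upper and by 5 in labelled lower). With that term 1 of all genes rose and 1 fell in labelled upper and 16 rose and 3 fell in labelled lower. Without embryos 1 and 2 no slope of a member was called either, while of all genes 15 rose and 3 fell in labelled upper and 1 rose and 0 fell in labelled lower.

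Adamtsl4 was the only member called in both labels. It rose by 0.41 ± 0.08 log2 units per day in labelled upper (adjusted p = 0.0212) and by 0.40 ± 0.06 in labelled lower (adjusted p = 0.00964). Within lanes its slopes were 0.44 ± 0.17 in labelled upper and 0.31 ± 0.11 in labelled lower, neither of them called (adjusted p 0.41 and 0.264). Its call was lost without embryo 1, 2 or 8 in labelled upper (adjusted p 0.0573 to 0.136) and without embryo 1 or 8 in labelled lower (0.0666 and 0.0747).

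Adamts5 and Adamts9, both lower in labelled upper, rose there with stage. Adamts5 rose by 0.47 ± 0.11 per day in labelled upper (adjusted p = 0.0361) and had a slope of 0.12 ± 0.06 in labelled lower (adjusted p = 0.243). The labelled upper values stepped up between ED16.0 (9.74 CPM) and ED16.5 (24.1 CPM), where the lane also changed, and within lanes the slopes were 0.06 ± 0.15 in labelled upper and -0.12 ± 0.07 in labelled lower. Its call was also lost without embryo 1, 2, 3, 6 or 8 (adjusted p 0.0676 to 0.113). Adamts9 rose by 0.20 ± 0.03 per day in labelled upper (adjusted p = 0.00728), with 67.1 CPM at ED14.5 and 110.3 CPM at ED18.0, and by 0.14 ± 0.06 within lanes. It lost its call without embryo 8 (adjusted p = 0.0535). The slopes of the labels were not called as different for Adamts5 (interaction adjusted p = 0.169) or Adamts9 (0.211).

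Of the other members that rose, Adamtsl5 had a slope of 0.29 ± 0.07 in labelled upper (adjusted p = 0.0372) and of 0.20 ± 0.14 within lanes, and its call was lost without any of embryos 2, 3, 4, 5, 7 and 8 (adjusted p 0.0532 to 0.167). Adamts17 rose by 0.14 ± 0.03 in labelled lower (adjusted p = 0.043) and by 0.23 ± 0.06 within lanes, a call lost without embryo 1, 2, 4, 5, 7 or 8 (adjusted p 0.051 to 0.189) and on a quadratic stage curve (0.055). In labelled upper Adamts17 had a slope of 0.18 ± 0.05 (adjusted p = 0.074). It was called there in 2 of 15 alternatives. One was the fit without embryo 7 (adjusted p = 0.0496), and the other had a lower adjusted p.

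The 3 members that fell did so in labelled upper. Adamts20, a relative of Adamts9 whose loss causes white belt spotting in mice, measured 45.6, 42.7, 37.9, 32.3, 31.1, 27.9, 31.1 and 29.3 CPM there and fell by 0.20 on the log2 scale per day (SE 0.03, adjusted p = 0.0123). Within lanes the slope was -0.18 ± 0.07, and the call was lost without embryo 1 (adjusted p = 0.0848). Adamtsl2 fell by 0.36 per day (SE 0.08, adjusted p = 0.0333), with -0.43 ± 0.17 within lanes, and lost its call without embryo 1, 2, 3, 6 or 8 (adjusted p 0.0514 to 0.158). Timp4 fell by 1.06 per day (SE 0.25, adjusted p = 0.0404), with -0.75 ± 0.56 within lanes, and lost its call without embryo 1, 2, 4, 6, 7 or 8 (adjusted p 0.0539 to 0.114) and on a quadratic stage curve (0.0651). The difference of slopes between the labels was not called for Adamts20 (interaction adjusted p = 0.0865) or Timp4 (0.281). Muscle and cornifying markers moved in the same libraries. In labelled upper 6 of 6 skeletal muscle markers and 4 of 6 cornifying markers rose with stage (3.72% of all genes did). In labelled lower 0 of 6 and 0 of 6 rose (2.63% of all genes did). The interaction called 0 of either list, and their part in the members' slopes was not tested.

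Among the related genes, Reck, Serpine2, Tll1 and Vcan rose with stage in labelled upper, with slopes of 0.16 ± 0.02, 0.14 ± 0.02, 0.33 ± 0.06 and 0.14 ± 0.03 per day. These were 2 of 10 inhibitors and activators, 1 of 5 C-propeptidases and enhancers and 1 of 8 substrates (3.72% of all genes rose). In labelled lower Pcolce, Acan and Fbn2 rose, with slopes of 0.21 ± 0.04, 0.68 ± 0.09 and 0.42 ± 0.04. These were 1 of 5 C-propeptidases and enhancers and 2 of 8 substrates (2.63% of all genes rose).

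**Figure D4:**
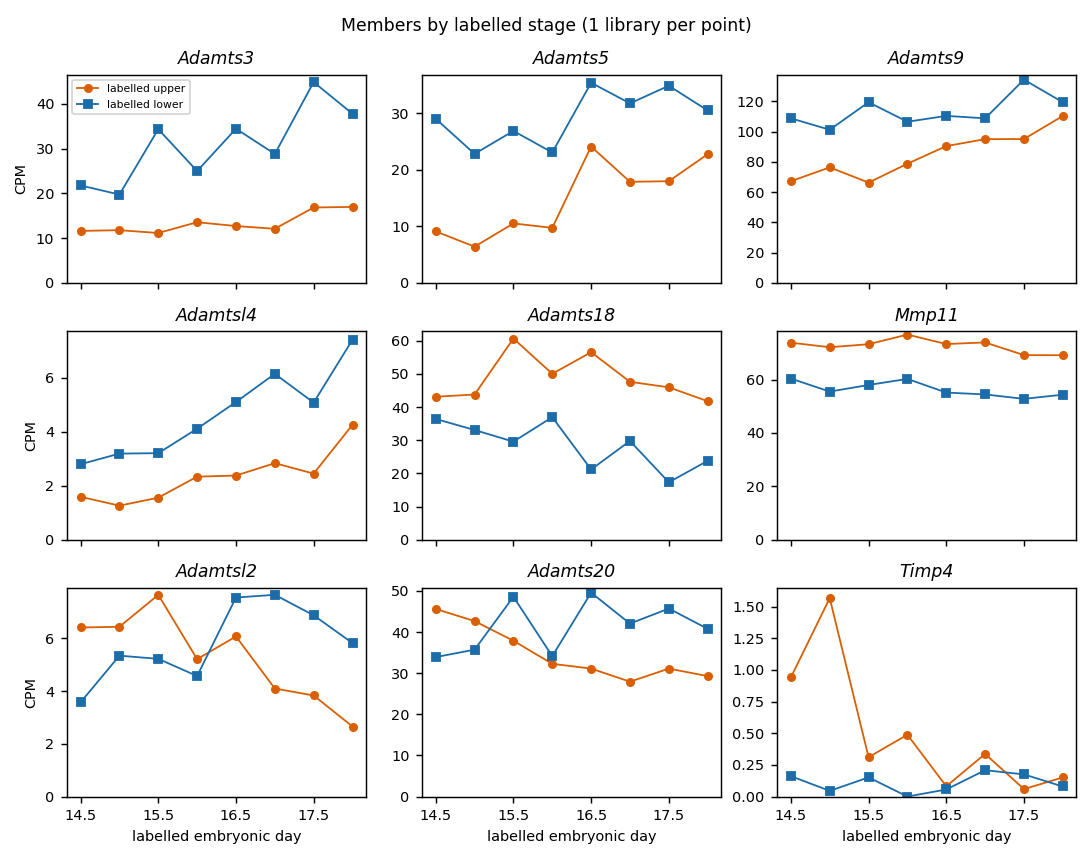
CPM by labelled embryonic day, 1 library per point, for 9 members. Adamts3, Adamts18 and Mmp11 keep the labels apart at every stage, Adamtsl4 climbs in both, and Adamtsl2, Adamts20 and Timp4 decline in labelled upper.

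The third comparison asks whether the slopes differ between the labels, as an interaction term tested with edgeR (quasi-likelihood, Benjamini-Hochberg adjusted). Of the 40 members, 0 had the steeper rise in labelled upper (0.682% of all genes did; 9 members had an unadjusted p under 0.05 in either direction, and DESeq2 also called 0), and 1 had the labelled upper slope below the labelled lower one (0.602% of all genes did), so 1 of 40 differed in either direction, against 1.28% of all genes. This was Adamtsl2 (chromosome 2, 27079379 to 27108981), which binds fibrillin and latent Tgfb binding proteins. It measured 6.41, 6.44, 7.65, 5.21, 6.07, 4.10, 3.83 and 2.65 CPM in labelled upper, against 3.57, 5.34, 5.22, 4.57, 7.54, 7.65, 6.87 and 5.82 CPM in labelled lower libraries. The labelled upper libraries were above the labelled lower ones for the first 4 embryos and below them for the last 4, and the lane changed between the same embryos in both labels. The difference of slopes was -0.58 ± 0.09 log2 units per day (adjusted p = 0.0128). It was not called without embryo 1 (adjusted p = 0.0969), embryo 8 (0.0892) or embryos 1 and 2 together (0.259). Within lanes the labelled upper slope was -0.43 ± 0.17 and the labelled lower slope -0.04 ± 0.14. The difference of slopes within lanes was -0.40 ± 0.16 and not called (adjusted p = 0.547), in a fit that called 0 of all genes and reached an unadjusted p under 0.05 for 3 members. With the embryo as a block, Adamts5 and Timp3 had a labelled upper slope above, and Adamts20 and Adamtsl2 one below, which makes 2 calls in each direction (1.71% of all genes were called above and 1.2% below in that fit). Of the substrates, Fbn2 was called with the labelled upper slope below (-0.40 ± 0.07, adjusted p = 0.0154).

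A further pattern ran across neighbouring stages inside both labels. Since Pou3f3 alternated from embryo to embryo, each gene's CPM was compared with it at the 7 steps between neighbouring stages. Of the 40 members, 8 moved with Pou3f3 at 7 of 7 steps in labelled upper and at 7 of 7 in labelled lower, which is 20% of them, against 4.53% of all genes tested. None moved opposite to it at every step, against 2.73% of all genes. The 8 were Mmp2, Timp2 and Timp3, and Adamts4, Adamts6, Adamts10, Adamts12 and Adamts15, and the same 8 were found with TMM-scaled CPM. These counts are descriptions and carry no test.

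Mmp2 (chromosome 8, 92827291 to 92853420) measured 320.2, 351.3, 293.6, 404.1, 354.4, 506.8, 339.1 and 502.7 CPM from ED14.5 to ED18.0 in labelled upper, against 325.2, 446.8, 319.4, 461.3, 334.9, 472.3, 334.9 and 494.6 CPM in labelled lower libraries. The value went up and down with each embryo in both labels. Timp2 (chromosome 11, 118301069 to 118355740) measured 274.0, 294.8, 279.1, 347.9, 309.5, 382.5, 301.9 and 400.9 CPM in labelled upper, against 293.5, 315.5, 263.9, 309.1, 289.2, 345.7, 296.1 and 335.4 CPM in labelled lower libraries, with a smaller swing. Timp3 measured 103.7, 128.4, 95.3, 134.0, 125.9, 167.8, 134.1 and 164.3 CPM in labelled upper, against 129.98, 168.2, 132.6, 154.2, 136.5, 159.3, 135.3 and 154.1 CPM in labelled lower libraries. Mmp14, the activator of pro-Mmp2, did not follow at every step.

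Among the 5 Adamts genes, the proteoglycanase Adamts4 measured 26.5, 33.3, 27.3, 36.5, 27.3, 37.2, 29.5 and 37.1 CPM in labelled upper, against 29.4, 38.1, 26.7, 34.6, 25.8, 38.4, 28.9 and 38.5 CPM in labelled lower libraries. Both labels traced a zigzag over overlapping ranges, and Adamts4 had a tooth difference of -0.03 ± 0.11. Adamts12 measured 25.3, 32.0, 25.3, 34.5, 26.8, 38.4, 19.8 and 43.6 CPM in labelled upper, against 17.97, 24.6, 14.3, 18.1, 14.1, 23.8, 16.27 and 21.2 CPM in labelled lower libraries, a zigzag with labelled upper above in every embryo. Adamts6 ran from 5.45 to 10.96 CPM in labelled upper and from 4.35 to 6.80 CPM in labelled lower, Adamts10 from 135.9 to 203.9 CPM in labelled upper and from 116.4 to 169.3 CPM in labelled lower, and Adamts15 from 11.5 to 24.3 CPM in labelled upper and from 8.90 to 19.4 CPM in labelled lower. Marker sums moved with the same steps. The summed dental mesenchyme markers went with Pou3f3, and the summed dental epithelium markers opposite to it, at 7 of 7 steps in each label. The summed procollagen C-propeptidase genes also went with it at 7 of 7 steps in each label, while the summed macrophage markers went with it at 7 of 7 steps in labelled upper and opposite to it at 7 of 7 in labelled lower. Their part in the members' zigzag was not tested.

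**Figure D5:**
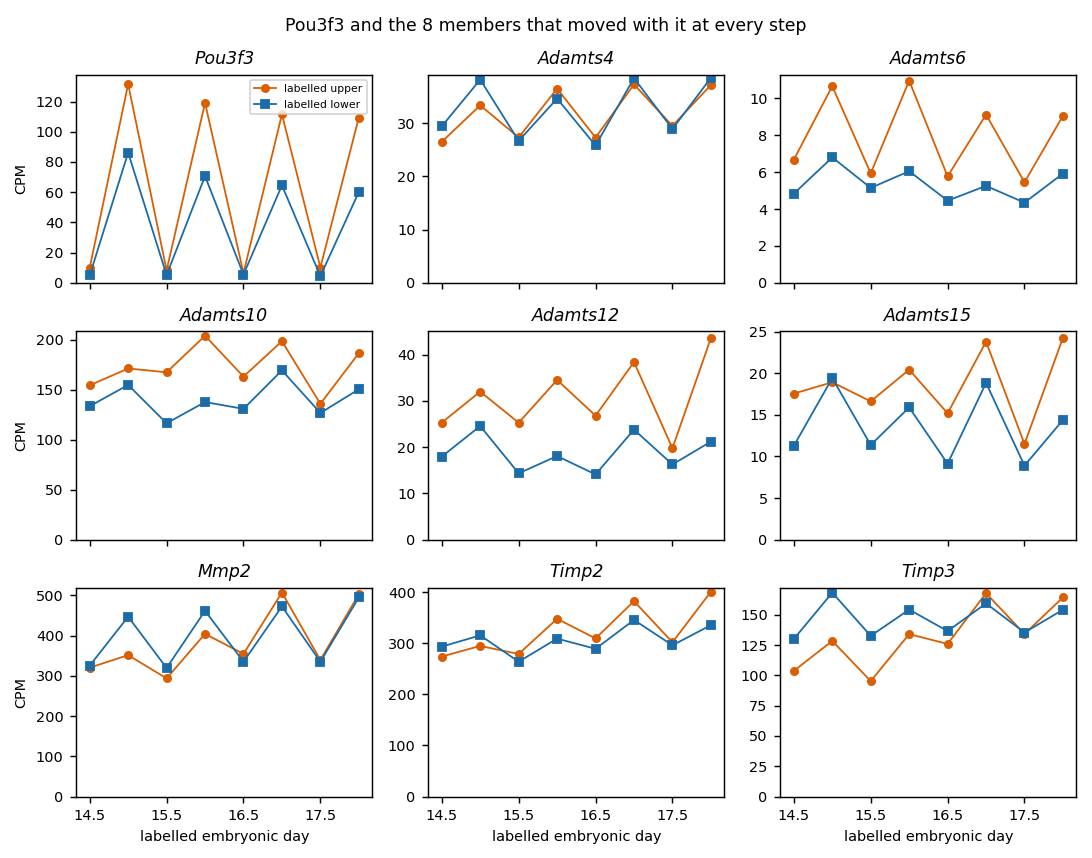
CPM by labelled embryonic day of Pou3f3 and of the members that moved with it at every step, 1 library per point. All 9 panels share the zigzag in both labels. Pou3f3, Adamts6, Adamts10 and Adamts12 show it with the labelled upper line above the labelled lower one at every stage.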

How the data were processed

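The authors deposited gene counts in whole numbers for 16 libraries of poly(A) RNA, not normalized. The tools named in the submitters' processing notes are TopHat2 2.0.6, Bowtie2 2.0.2 and HTSeq 0.5.3p9, with build mm10. Per the labels' protocols, the TruSeq V2 kit does not mark strand and reads were 100 bp pairs. Not given in the sources used here are the counting annotation, its strand setting and if reads or pairs were counted. Timp1, Timp3 and Timp4 lie inside synapsin genes and Mmp12 overlaps Mmp1b, and reads of such pairs could not be told apart by strand. The 5 summary lines of each table entered neither library sizes nor tests (no feature 11.8% to 14.1%, ambiguous 0.896% to 1.07%, not unique 6.07% to 6.67%). No pair of libraries was identical.

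CPM used library gene totals. Levels per kilobase used the summed exon length in GENCODE (GRCm38), found for all 48 members, and coordinates come from the same annotation. A gene needed 0.269 CPM (10 counts at median depth) in 2 or more libraries, and 16287 genes passed. They were tested by edgeR 4.0.16 quasi-likelihood F tests in R 4.3.3 with TMM factors, adjusted after Benjamini-Hochberg and called under 0.05. The tooth difference used a natural spline of stage with 3 degrees of freedom, slopes were linear in each label's 8 libraries, and the interaction added label by day. Standard errors were taken as the log2 value over the square root of F. The fit was tested on simulated data. With 1 library per label and stage, p-values measure scatter about a stage curve between embryos.

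Per the labels, upper and lower germs of a number came from the same embryo. Deviations from the group means of same-numbered libraries correlated at 0.122 to 0.279. Of the 8 labelled upper libraries, 4 were closest to their own number in this check. Same-numbered libraries also share a stage and a high or low Pou3f3 level. The check therefore cannot tell a shared embryo from these. Alternatives were another scaling, no filter, DESeq2 1.42.0, a linear or quadratic stage, the embryo as a block, lane as a term and leaving out embryos. Leaving out embryos 1 and 2 together, and lane in the interaction, were added after the data were seen. Values are given for members with a called tooth difference of at least 1 on the log2 scale, the slope and interaction calls, the members alternating with Pou3f3, the 3 highest of each class and all Timps. Other called members are named beyond this rule, after their values were seen. Members, lists and tests were chosen with earlier results of these data known. Promoter sequences are from RefSeq (GRCm38.p6).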

Additional observations from a re-analysis of the deposited data

Results flagged for a closer look

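Within each label, the highest and lowest library of each detected member was compared with its nearest neighbour by Dixon's criterion. Of 80 groups tested, 2 were flagged, and chance flags about 1 in 20 groups. Mmp3 (stromelysin 1) measured 1.3 CPM in labelled upper embryo 8, on 43 counts, and the next labelled upper library measured 0.156 CPM. Mmp17, a membrane-anchored Mmp, measured 14.9 CPM in labelled upper embryo 2, and the next labelled upper library measured 9.35 CPM. Adamtsl2 had slopes that differed between the labels by a test of the difference itself, at -0.58 log2 units per day (edgeR quasi-likelihood, adjusted p = 0.0128), and at -0.40 and not called with lane as a term (adjusted p = 0.547).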

How the results depend on the processing

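Of 675 values of named members under an alternative, 564 kept direction and side of the threshold, 98 kept direction and lost the call, 4 gained a call and 9 changed sign. Leaving out 1 embryo at a time gave 7 to 13 members higher in labelled upper and 9 to 11 higher in labelled lower, with the lowest count for labelled upper without embryo 4. It gave 0 to 8 rising and 0 to 3 falling members in labelled upper, 0 to 3 rising and 0 to 0 falling in labelled lower, and 0 to 0 slope differences above and 0 to 1 below. DESeq2 gave 10 rising members in labelled upper (7.12% of all genes rose), 6 rising and 1 falling in labelled lower (6.18% and 4.75% of all genes), and 2 interaction calls below (1.79% of all genes). With lane as a term the slope calls were 0 rising and 0 falling in labelled upper and 0 rising in labelled lower, and the interaction below was 0, in fits with fewer residual degrees of freedom. Without embryos 1 and 2 together, a fit on fewer samples, the slope calls were 0 rising and 0 falling in labelled upper and 0 rising in labelled lower, and the interaction below was 0. The tooth fit without them gave 8 members higher in labelled upper and 10 higher in labelled lower (12.6% and 14.6% of all genes): Adamts8, Adamts14, Mmp28, Timp4, Mmp8, Mmp19 and Mmp23 lost the tooth call (adjusted p 0.0556 to 0.264), and Adamts20 and Mmp17 gained one as higher in labelled lower. Sign changes were in uncalled values: with lane as a term the labelled lower slopes of Adamts5 (-0.12), Adamts20 (-0.019), Adamtsl2 (-0.039), Adamtsl5 (-0.26) and Timp4 (-0.53), the labelled lower slope of Timp4 without embryo 2 (-0.0079) or 7 (-0.013, in a range of -0.013 to 0.39 over single embryos left out), and without embryos 1 and 2 the labelled lower slope of Adamts20 (-0.015) and the tooth difference of Adamts4 (0.019). The cause was not tested. With the embryo as a replicate block the tooth difference gave 12 and 11 calls (18.7% and 18.9% of all genes). It gained Adamts15 and Adamts2 and lost Adamts8 and Mmp8. With that block the interaction gave 2 above and 2 below (1.71% and 1.2% of all genes). At least 5 counts in a library gave 42 detected members and at least 20 gave 40. Depth limits Timp4, Mmp3, Mmp8 and Adamts13, with at most 221 counts each over all libraries.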
